A study of Rattus norvegicus with 6 samples.

Results

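Expression of 10 genes for helix-loop-helix transcription factors was examined in NRK-52E, a rat cell line classed as kidney tubule epithelium. The genes were Scx, Atoh8, Tcf21, Tcf15, Msc, Tcf4, Id1, Id2, Id3 and Id4. They are 10 of 18166 genes with a value. The genes were chosen by family membership with the measured NICD1 and control values known, Scx and Atoh8 by the size of their group difference. Their levels are therefore given as a description, and none is tested. Total RNA was measured on 3 arrays labelled control and 3 labelled NICD1, for overexpression of the Notch1 intracellular domain, the fragment that cleavage of the receptor releases to act in the nucleus. Both groups were grown in DMEM with 10% fetal calf serum, antibiotics and L-glutamine, at 37 °C and 5% CO2. The domain was expressed from pINDUCER21, a lentiviral vector for drug-inducible expression. The labels used here do not state the vector in the control cells, the use of an inducer in either group, the time of harvest or whether each line was 1 clone.

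Helix-loop-helix factors bind DNA as dimers, through a basic region next to the helix-loop-helix that recognises the E-box. Tissue-restricted members pair with broadly expressed E proteins such as Tcf4, while Id proteins lack the basic region and take E proteins out of DNA-binding pairs. Id1, Id2 and Id3 are classical targets of bone morphogenetic protein (BMP) signalling through Smad proteins, and the Hes and Hey repressors that Notch induces belong to the same superfamily.

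To show the DNA in front of the members whose arrays separated, the 250 bases upstream of the annotated start are printed 5′ to 3′ for Atoh8, Id1, Id2 and Id4, from RefSeq (build GRCr8). Capitals mark matches, on either strand, to CANNTG (the E-box), CACGTG (1 form of it) or CACGCG (a site bound by Hes and Hey factors).
Atoh8 (chr4:105850380-105850629, minus strand): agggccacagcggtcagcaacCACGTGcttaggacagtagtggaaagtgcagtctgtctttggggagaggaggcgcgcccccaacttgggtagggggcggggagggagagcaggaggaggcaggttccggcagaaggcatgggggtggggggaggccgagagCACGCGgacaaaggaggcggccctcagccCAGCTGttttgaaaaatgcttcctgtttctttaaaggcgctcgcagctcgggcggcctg
Id1 (chr3:161671314-161671563, plus strand): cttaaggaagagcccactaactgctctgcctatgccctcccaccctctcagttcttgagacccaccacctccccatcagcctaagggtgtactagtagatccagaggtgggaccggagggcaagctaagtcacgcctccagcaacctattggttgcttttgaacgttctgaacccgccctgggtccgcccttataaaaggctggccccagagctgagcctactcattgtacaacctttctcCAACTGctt
Id2 (chr6:47470996-47471245, minus strand): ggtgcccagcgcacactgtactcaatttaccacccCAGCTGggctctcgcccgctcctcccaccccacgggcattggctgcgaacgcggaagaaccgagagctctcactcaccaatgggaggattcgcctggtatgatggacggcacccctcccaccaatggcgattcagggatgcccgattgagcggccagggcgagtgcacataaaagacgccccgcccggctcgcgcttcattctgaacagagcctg
Id4 (chr17:16598294-16598543, minus strand): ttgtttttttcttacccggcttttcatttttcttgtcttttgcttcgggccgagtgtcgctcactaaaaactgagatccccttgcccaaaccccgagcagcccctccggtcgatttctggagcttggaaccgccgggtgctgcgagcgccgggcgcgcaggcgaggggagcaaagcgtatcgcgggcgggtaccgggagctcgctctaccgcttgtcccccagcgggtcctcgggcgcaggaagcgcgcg
The Atoh8 window held 2 E-boxes, CACGTG beginning 229 bases and CAGCTG beginning 59 bases before the start, and CACGCG 88 bases before it. Id1 held CAACTG 9 bases and Id2 CAGCTG 215 bases before the start, and the Id4 window matched none of the 3 motifs. Of 8 members with an entry, 3 had a CANNTG match, against 65.5% of 33469 rat windows of the same length. CACGTG occurred in 5.59% of those windows and CACGCG in 7.14%. The Rbpj core TGGGAA (22.1% of all windows) and the Smad-bound GGCGCC (8.69%) had no match in the 8 windows, which says only that these letters are not there. Scx and Msc had no entry.

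The arrays had median linear intensities of 57.5 to 60.1. On the second principal component of all genes, which held 11.8% of the variance, control replicate 1 stood apart at 16.15, with the other arrays between -8.99 and 2.04. Notch1 was 8.52 ± 0.13 in control and 9.18 ± 0.08 in NICD1 (log2 intensity; mean ± SD, n = 3 each here and below). The labels do not state whether its probes read the introduced domain. A background level of 5.74 on the log2 scale was set from 1398 chemosensory receptor genes, most of which are expressed mainly in sensory tissue, and serves only to describe levels. Of 9 measured tubule epithelium markers 3 lay above it in at least 1 group (Krt8, Krt19 and Tjp1). Cdh1, Epcam, Cdh16 and Pax8 lay below in both. The summed linear intensity of the 9 ran from 5672 to 5897 in control and from 6454 to 6709 in NICD1. For 9 proximal tubule markers, among which Lrp2, Cubn and Slc34a1 lay below background, the sums were 908 to 1039 and 511 to 543. Most of that fall lay in 1 marker, Dab2, which was 9.05 ± 0.12 in control and 6.71 ± 0.04 in NICD1 (log2 intensity). Fibroblast and pericyte markers (6 of 9 above background) summed to 1153 to 1264 and 1510 to 1600. Of these 9, 2 rose and 0 fell at a limma p, adjusted over all genes, of under 0.05. The 2 were the collagen genes Col1a1 (0.90 on the log2 scale) and Col3a1 (0.46), both counted again among the tendon genes below. The other markers of this list did not pass, so the higher sum does not show a rise shared across the list. Leukocyte markers (2 of 6 above background) summed to 2496 to 2577 in control and 2730 to 2838 in NICD1. Endothelial markers (1 of 5, Tek) summed to 336 to 359 and 273 to 285, and skeletal muscle markers (3 of 6) to 367 to 388 and 350 to 355. Podocyte markers (3 of 4) summed to 251 to 286 in control and 290 to 299 in NICD1. The part of these shifts in the results below was not tested.

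Scx and Atoh8, both tissue-restricted factors, were far lower on every NICD1 array. Scx (Entrez gene 680712), the scleraxis gene that marks tendon and ligament progenitors, read 10.42, 10.28 and 10.43 on the control arrays and 7.75, 7.40 and 7.77 on the NICD1 arrays (log2 intensity, replicates 1 to 3). The lowest control lay 2.51 above the highest NICD1 array, and NICD1 replicate 2 was the lowest of all. The means were 10.38 ± 0.08 and 7.64 ± 0.21, a difference of -2.73 (SE 0.11), 6.65-fold lower in NICD1. SE, here and below, is the moderated standard error of limma, which draws on the variance of all genes.

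Atoh8 (Entrez gene 500200), an atonal-type factor known as a target of BMP-activated Smads in endothelium, read 9.34, 9.26 and 9.18 in control and 7.12, 7.25 and 7.61 in NICD1. Its groups were 1.57 apart, and NICD1 replicate 3 was the highest array of its group. From a mean of 9.26 ± 0.08 to one of 7.32 ± 0.26, the difference was -1.94 (SE 0.13), 3.83-fold lower in NICD1. Both genes stayed above background on all 6 arrays. In bulk RNA, fewer cells with a transcript and less of it per cell cannot be told apart. Leaving out control replicate 1 gave -2.71 for Scx and -1.89 for Atoh8.

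**Figure D1:**
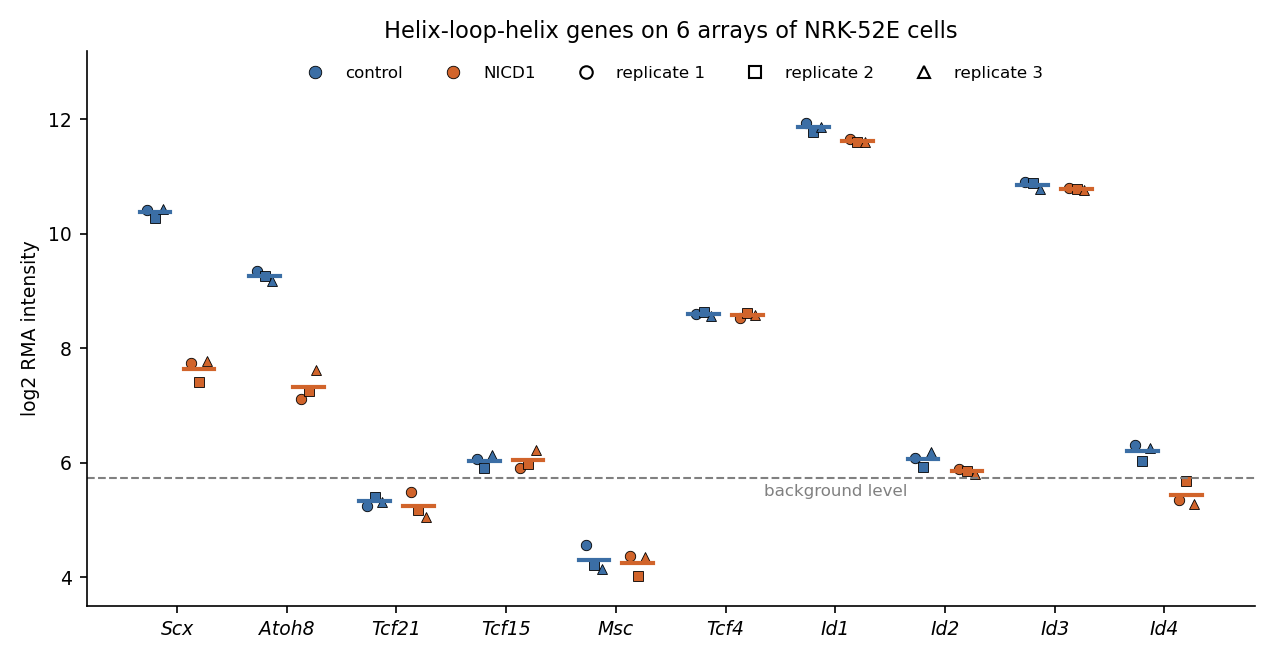
Log2 RMA intensity of the 10 genes on each array, with control in blue, NICD1 in orange, bars at the group means and symbols for replicates 1 to 3. Scx and Atoh8 drop between the groups, Id4 crosses the dashed background level of 5.74, and the height of 1 gene is not comparable with that of another.

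The 4 Id genes all had lower means in NICD1. In 3 of them every NICD1 array lay below every control array, as was so for 15.7% of all genes. Id4 (Entrez gene 291023), the Id family member with the most restricted expression, had the widest gap. Its controls read 6.30, 6.03 and 6.26 and its NICD1 arrays 5.34, 5.67 and 5.28. All 3 NICD1 arrays lay below background, and the closest pair of arrays from the 2 groups was 0.36 apart. The difference was -0.77 (SE 0.12), 1.70-fold lower in NICD1.

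Id1 (Entrez gene 25261), the Id gene most used as a readout of BMP signalling, was separated by less. It read 11.94, 11.78 and 11.87 in control and 11.66, 11.60 and 11.60 in NICD1, so the groups were 0.12 apart. The difference was -0.24 (SE 0.06), 1.18-fold lower in NICD1.

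Id2 (Entrez gene 25587), which can also bind the retinoblastoma protein, read 6.09, 5.92 and 6.19 in control and 5.88, 5.86 and 5.80 in NICD1. The groups were separated by 0.03, less than the SD of the controls, 0.14, and the whole gene lay close to background. The difference was -0.21 (SE 0.08).

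Id3 (Entrez gene 25585), often induced alongside Id1, read 10.90, 10.89 and 10.78 in control and 10.80, 10.78 and 10.76 in NICD1. Control replicate 3 fell among the NICD1 values, so the groups overlapped. The difference was -0.08 (SE 0.06). After median centring, without control replicate 3 or without NICD1 replicate 1, the Id3 groups no longer overlapped.

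The E protein Tcf4 (Entrez gene 84382), a general dimer partner also called E2-2, was at like levels in both groups. It read 8.59, 8.63 and 8.56 in control and 8.53, 8.62 and 8.58 in NICD1, with overlapping groups and a difference of -0.02 (SE 0.05). The 6 arrays spanned 8.53 to 8.63.

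The other 3 tissue-restricted members overlapped between the groups and lay near or below background. Tcf15 (Entrez gene 296272), the paraxis factor of somites, read 6.06, 5.90 and 6.13 in control and 5.91, 5.98 and 6.22 in NICD1, a difference of 0.01 (SE 0.10). Tcf21 (Entrez gene 252856), also called Pod1, a factor of podocytes and kidney stroma, read 5.25, 5.40 and 5.32 in control and 5.49, 5.17 and 5.05 in NICD1. Its difference was -0.08 (SE 0.11), it was 0.01 without NICD1 replicate 3 or -0.21 without NICD1 replicate 1, and its level was below background on all arrays. Msc (Entrez gene 312897), musculin, a repressor in muscle precursors, read 4.57, 4.21 and 4.14 in control and 4.37, 4.02 and 4.34 in NICD1. The difference was -0.06 (SE 0.14), also below background throughout.

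Over the 10 genes, 9 had a negative difference and 1, Tcf15, a positive one. Their median was -0.15, beside 0.01 over all genes. In 5 of the 10 (Scx, Atoh8, Id1, Id2 and Id4) the NICD1 arrays all lay below the controls, as they did for 15.7% of all genes, and in 0 of the 10 did they all lie above, as for 17.0% of all genes. The first count was 7 without NICD1 replicate 1, when Id3 and Tcf21 joined. The middle 95% of all genes' differences ran from -0.53 to 0.56, a span that Scx, Atoh8 and Id4 passed and the other 7 genes did not. Scx and Atoh8 were chosen by the size of their differences. Their part in these counts, in the median and outside this span was therefore set in advance.

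**Figure D2:**
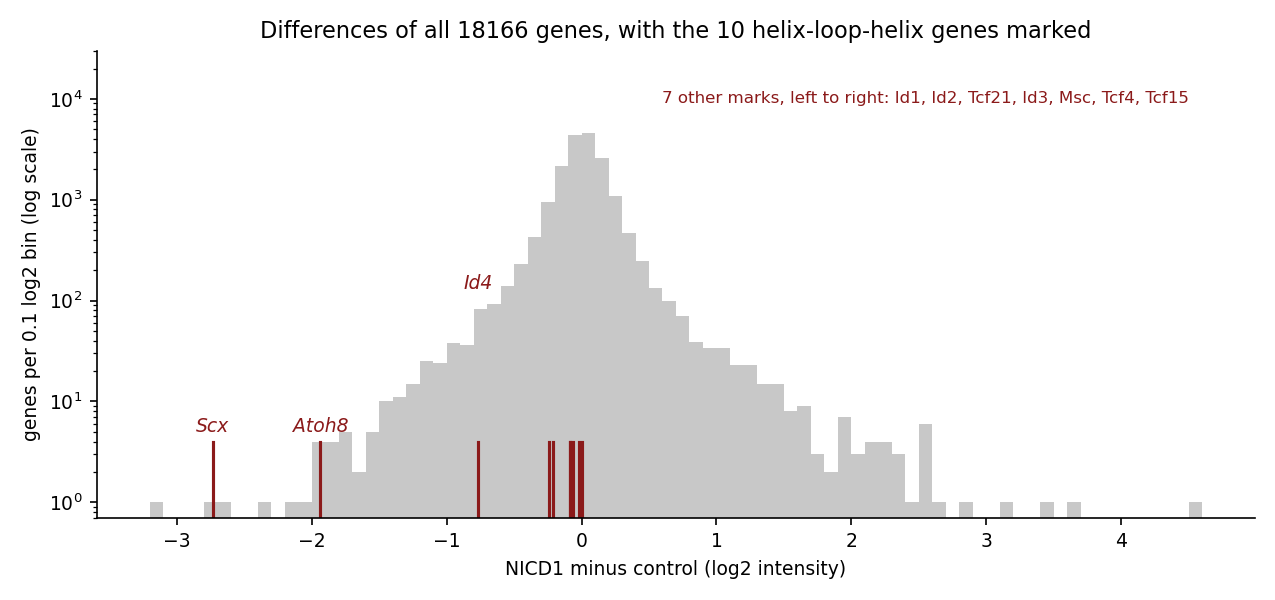
Number of genes per bin of NICD1 minus control on the log2 intensity scale, with a logarithmic count axis and a mark for each of the 10 helix-loop-helix genes. Scx at -2.73, Atoh8 at -1.94 and Id4 at -0.77 stand out to the left, and the other 7 marks lie between -0.24 and 0.01.

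The members differed in how much they varied between arrays of 1 group. The SD of Scx was 2.52 times as large in NICD1 as in control, and that of Atoh8 3.10 times. Id1, Id2 and Id3 went the other way, with control SDs 2.27, 3.23 and 3.57 times those of NICD1. With 3 arrays a group these ratios are a description. They did not share 1 order of arrays. Among the controls, replicate 2 was the lowest for Scx, Id1, Id2, Id4 and Tcf15, whereas replicate 3 was the lowest for Atoh8, Id3, Tcf4 and Msc. Among the NICD1 arrays, replicate 2 was the lowest for Scx and the highest for Id4, and replicate 3 was the highest for Atoh8 and the lowest for Id1, Id2, Id3 and Id4.

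**Figure D3:**
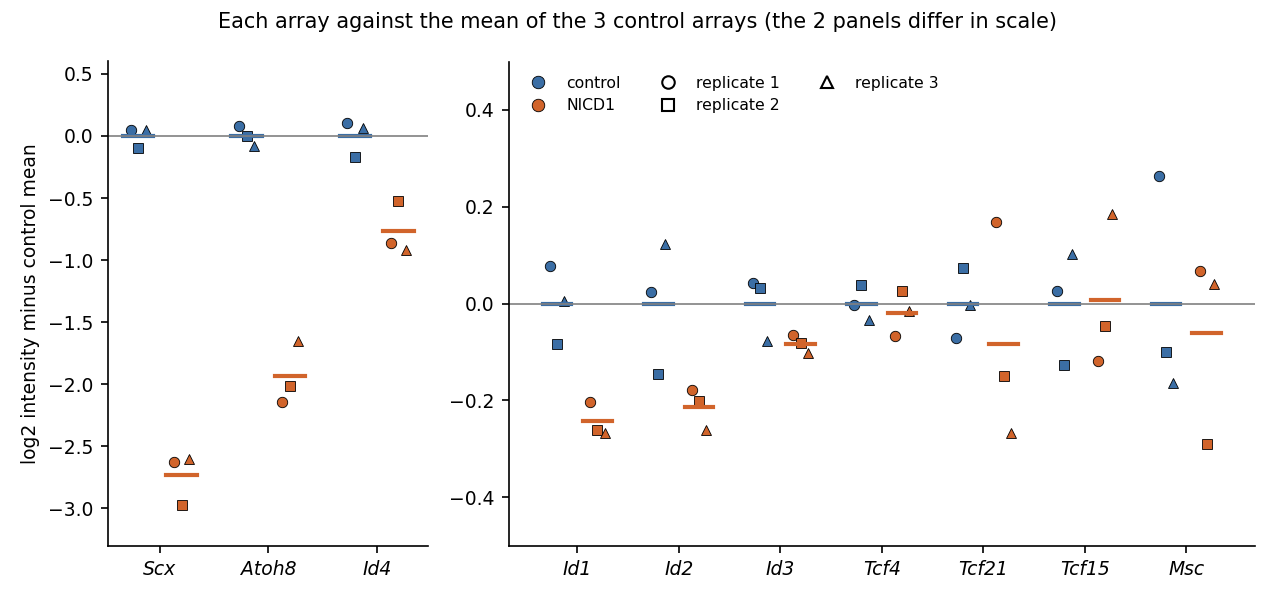
Log2 intensity of each array minus the mean of the 3 controls of that gene, in 2 panels of different scale, with symbols for replicates and bars at the group means. On the left Scx, Atoh8 and Id4 lie wholly below their controls, and on the right Id1 and Id2 separate narrowly while Id3, Tcf4, Tcf21, Tcf15 and Msc overlap.

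The nearest profiles to Scx over the 6 arrays were those of Edn1, Dab2 and Tlr1. After each profile was centred on its own mean, the root mean square difference from Scx was 0.14 for Edn1, the endothelin precursor, 0.26 for Dab2, an endocytic adaptor, and 0.31 for Tlr1, a receptor for bacterial lipopeptides. The nearest to Atoh8 were Rab17, a GTPase of membrane traffic in polarised epithelia, at 0.10, the LIM homeodomain factor Isl1 at 0.12 and Rflnb at 0.14. Edn1 read 10.45, 10.55 and 10.45 in control and 7.87, 7.83 and 7.92 in NICD1. Control replicate 2 was its highest control but the lowest for Scx, while NICD1 replicate 2 was the lowest NICD1 array for both. Rab17 read 8.47, 8.25 and 8.27 in control and 6.30, 6.47 and 6.55 in NICD1. Isl1 read 10.08, 9.98 and 9.98 in control and 8.10, 8.28 and 8.43 in NICD1, with replicate 3 the highest NICD1 array, as for Atoh8. Scx and Atoh8 themselves were 0.43 apart. All 6 genes were lower on every NICD1 array than on every control array, as the measure favours genes with a group difference of the same size.

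**Figure D4:**
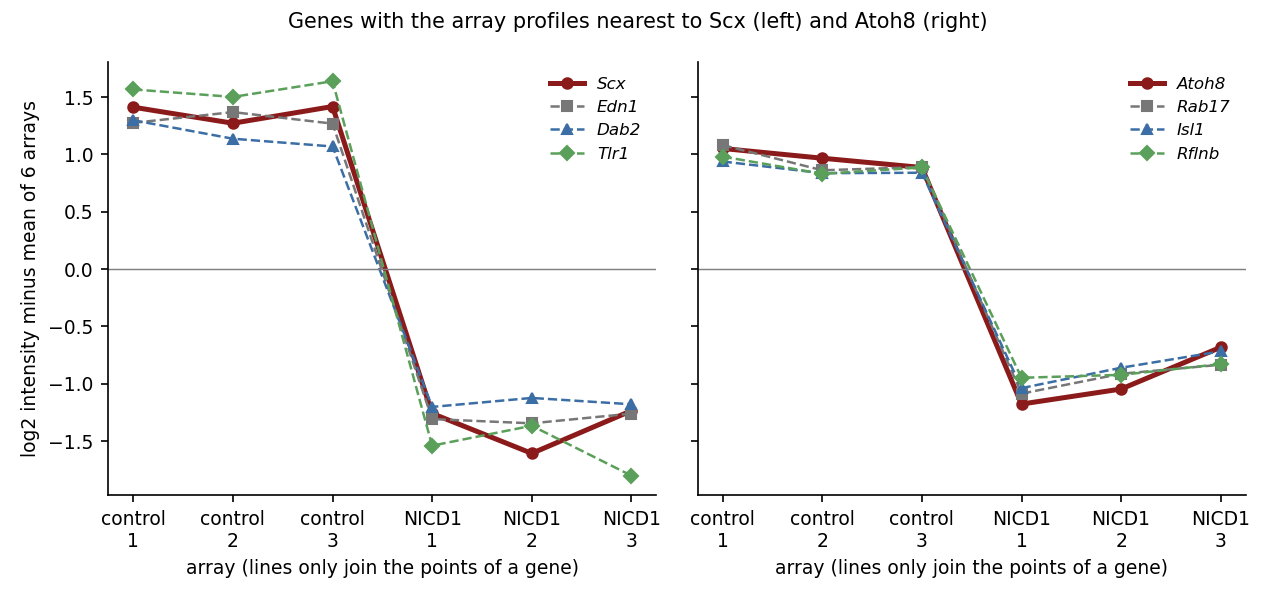
Log2 intensity minus the mean of the 6 arrays, for Scx (left) and Atoh8 (right) in solid lines and the 3 nearest genes in dashed lines. Edn1 is nearest to Scx at a root mean square difference of 0.14 and Rab17 is nearest to Atoh8 at 0.10. The lines only join points of a gene.

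Other factors of the same structural class changed in few cases. Of 42 measured class I and class II basic helix-loop-helix genes outside the 10, 2 rose and 1 fell, at a limma p adjusted over all genes by Benjamini-Hochberg of under 0.05, while 39 did not pass. That is 7.14% called, against 14.7% of all genes (7.45% higher and 7.22% lower in NICD1), and their median difference was 0.02. At least 1 group mean exceeded background for 25 of them, with the 2 rises and 1 fall all among these. Of all 11410 genes above background by this rule, 1238 rose and 1247 fell. Twist2, a mesenchymal factor, rose by 1.33 (SE 0.09), 2.51-fold, from 7.34 ± 0.10 to 8.67 ± 0.15 (limma adjusted p = 0.00012). Hand2, a factor of heart and limb development, fell by 0.55 on the log2 scale (SE 0.12), between means of 9.02 ± 0.19 and 8.46 ± 0.16 (limma adjusted p = 0.021), a call lost without NICD1 replicate 2 (0.0684) or 3 (0.065). Lyl1, a blood-lineage factor, rose by 0.31 (SE 0.08; limma adjusted p = 0.0489) and lost the call when any array but NICD1 replicate 2 was left out. The count of rises was then 1. The E proteins Tcf3 and Tcf12, partners of the members beside Tcf4, did not pass. Tcf3 was 9.74 ± 0.09 in control and 9.79 ± 0.02 in NICD1, a difference of 0.05 (SE 0.06). Tcf12 was 10.89 ± 0.06 and 10.79 ± 0.01, a difference of -0.09 (SE 0.05).

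BMP pathway genes, whose signalling acts upstream of Id genes, changed in both directions. Among 48 with a value 7 rose, 11 fell and 30 did not pass the test, which is 37.5% called beside 14.7% of all genes, with a median difference of -0.02. Of the 34 above background in at least 1 group, 6 rose and 11 fell. Leaving out NICD1 replicate 1 left 6 of these falls, and leaving out replicate 2 of either group left 7. Genes outside the 8 with the smallest p-values are named to complete each count, after their values were seen.

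Of 12 ligands 4 fell and 2 rose. Bmp6 fell by 1.35 on the log2 scale (SE 0.09), between means of 8.44 ± 0.13 and 7.08 ± 0.11 (limma adjusted p = 9.71e-05), 2.55-fold lower in NICD1. Bmp8a fell by 0.69 (SE 0.08), Gdf6 by 0.71 (SE 0.17) and Bmp4, which was 11.80 ± 0.04 in control, by 0.30 (SE 0.06). Bmp2 rose by 0.59 (SE 0.09), and Bmp10, below background in both groups, by 0.32 (SE 0.06). The falls were 2 without control replicate 2 or NICD1 replicate 1, when Bmp4 and Gdf6 lost their calls. The rises were 1 without NICD1 replicate 2, when Bmp10 lost its call.

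Of 9 receptors and coreceptors 2 rose and 1 fell. The type I receptor Acvr1, also called Alk2, rose by 1.07 (SE 0.06), 2.10-fold, from 9.43 ± 0.07 to 10.50 ± 0.06 (limma adjusted p = 5.25e-05). The type II receptor Bmpr2 rose by 0.31 (SE 0.06), and the type I receptor Bmpr1a fell by 0.24 (SE 0.06), a call lost when any array but control replicate 1 was left out.

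Of the 4 Smads that carry the signal, Smad9, a receptor-regulated Smad also called Smad8, was the 1 that changed. It read 7.80, 7.63 and 7.58 in control and 6.42, 6.24 and 6.21 in NICD1 and fell by 1.38 on the log2 scale (SE 0.08; limma adjusted p = 7.22e-05), 2.60-fold lower in NICD1. Smad1 (-0.25, SE 0.10), Smad5 (-0.07, SE 0.07) and the common partner Smad4 (0.08, SE 0.05) did not pass.

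Of 16 antagonists and inhibitors 5 fell and 2 rose. The inhibitory Smad6, itself a BMP target, fell by 0.86 on the log2 scale (SE 0.06), between means of 10.03 ± 0.08 and 9.17 ± 0.06 (limma adjusted p = 0.000159). The secreted antagonist Nbl1 fell by 0.63 (SE 0.06), Chrd by 0.55 (SE 0.13), Nog by 0.52 (SE 0.09) and the ubiquitin ligase gene Smurf2 by 0.26 (SE 0.06). The pseudoreceptor Bambi rose by 0.68 (SE 0.09) and the activin and BMP antagonist Fst by 0.41 (SE 0.06), while Smad7 (0.07, SE 0.06) did not pass. Without control replicate 1 or any 1 of the NICD1 arrays the falls were 3, Chrd and Smurf2 having lost their calls.

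Of 7 other BMP targets 1 changed. Runx2, a factor of bone formation, rose by 0.83 (SE 0.06), from 8.89 ± 0.06 to 9.72 ± 0.05 (limma adjusted p = 0.000127). Msx1 (-0.25, SE 0.09) and Msx2 (0.23, SE 0.14) did not pass.

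**Figure D5:**
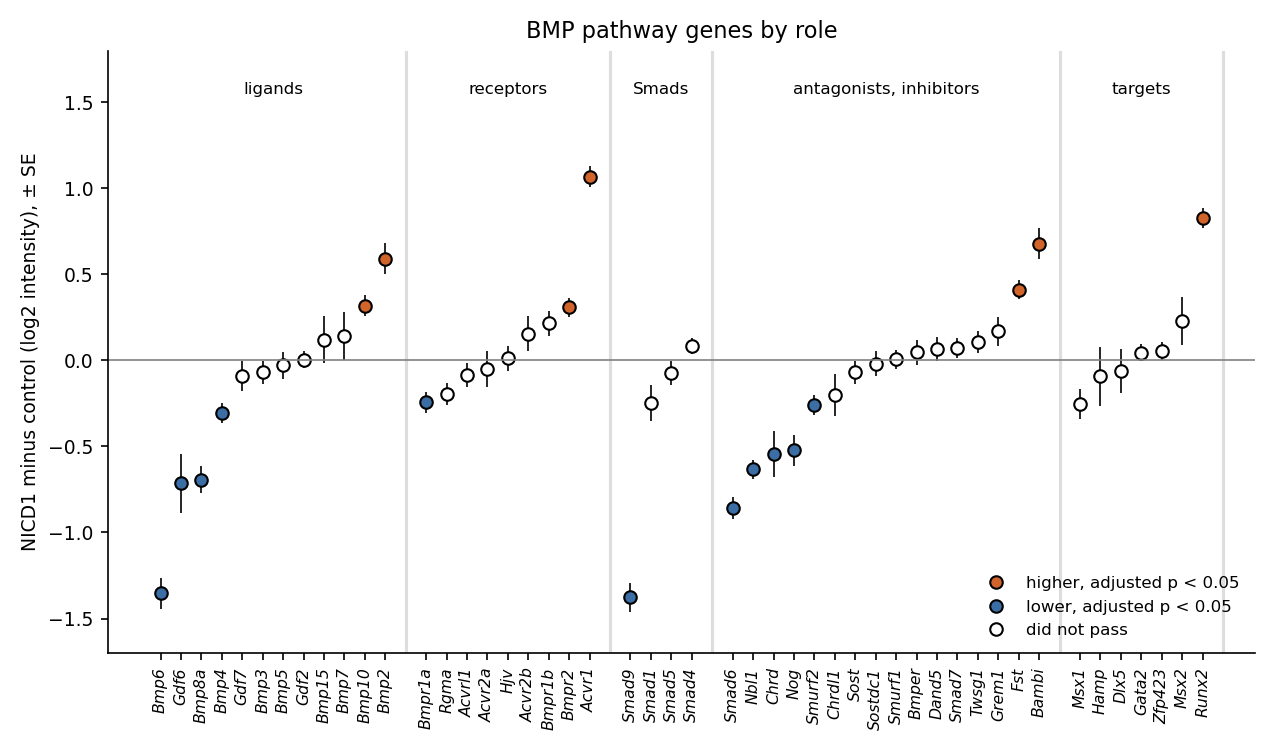
NICD1 minus control on the log2 intensity scale, with the limma standard error, for 48 BMP pathway genes ordered by role. Filled circles passed the adjusted p of 0.05, orange upward and blue downward. Bmp6, Smad9 and Smad6 lie lowest and Acvr1 and Runx2 highest.

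Among genes linked to Scx in tendon more rose than fell. Among 18 with a value 7 rose, 1 fell and 10 did not pass the test, which is 44.4% called beside 14.7% of all genes, with a median of 0.07 and 12 above background. The 7 rises and 1 fall all lay among these 12. Col14a1, a fibril-associated collagen, fell by 1.18 on the log2 scale (SE 0.07), between means of 9.87 ± 0.05 and 8.70 ± 0.09 (limma adjusted p = 5.07e-05). The immediate early factors Egr1 and Egr2, which take part in tendon development, rose by 0.95 (SE 0.08) and 0.94 (SE 0.07). Col1a1, a collagen gene that Scx can activate, rose by 0.90 (SE 0.11), from 7.78 ± 0.20 to 8.68 ± 0.11 (limma adjusted p = 0.00166). Col1a2, in the same list, lay below background in both groups and had a difference of -0.02 (SE 0.10). The other rises, named to complete the count, were those of Col3a1 (0.46, SE 0.06), Tgfb2 (0.37, SE 0.06), Tgfb3 (0.34, SE 0.05) and Col5a1 (0.28, SE 0.07). Col5a1 had a limma adjusted p of 0.0454 and lost its call when any 1 array other than control replicate 1 was left out, which left 6 rises. Tnmd, the tenomodulin gene that Scx induces, lay below background in both groups and had a difference of -0.10 (SE 0.08). Mkx (0.16, SE 0.07), Fmod (-0.20, SE 0.09) and Thbs4 (-0.04, SE 0.08), which mark tendon cells beside Scx, did not pass. The summed linear intensity of these 4 markers, Scx left out, ran from 403 to 427 in control and from 382 to 432 in NICD1, so the groups overlapped.

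Among partners of Id proteins and targets of E proteins, genes changed in both directions. Among 15 with a value 1 rose, 2 fell and 12 did not pass the test, 20.0% called beside 14.7% of all genes, with a median of -0.04. Of the 12 above background in at least 1 group, 1 rose and 2 fell. Ets1, an ETS factor of the kind Id proteins can bind, rose by 0.43 (SE 0.05), from 9.67 ± 0.02 to 10.10 ± 0.05 (limma adjusted p = 0.00159). The CDK inhibitor gene Cdkn1b fell by 0.37 on the log2 scale (SE 0.05), between means of 9.89 ± 0.05 and 9.51 ± 0.04 (limma adjusted p = 0.00374). Ets2 fell by 0.22 (SE 0.06; limma adjusted p = 0.0393) and lost the call without any 1 of the 6 arrays (adjusted p from 0.0582 to 0.129), which left 1 fall. Cdkn1a, an E-protein target that Id proteins restrain, was 10.99 ± 0.10 in control and 10.95 ± 0.09 in NICD1, a difference of -0.04 (SE 0.08). Rb1 (-0.12, SE 0.05) and Usp1 (-0.04, SE 0.05), whose product removes ubiquitin from Id proteins, did not pass.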

How the data were processed

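Gene expression was measured on 3 control and 3 NICD1 arrays. The authors deposited linear intensity values. Per the submitters' processing notes these come from RMA in Affymetrix Expression Console, with no version listed. RMA normalises quantiles between arrays, so a shift shared by most genes would be removed. The labels do not name the array type or a genome build. Of 36685 probe sets, 18511 had 1 symbol in the platform annotation and were kept, giving 18166 genes. Log2 was taken without pseudocount and averaged per symbol, and each of the 10 members had 1 probe set. No gene was filtered. The comparison of groups used limma 3.58.1 under R 4.3.3 (lmFit, eBayes, two-sided, Benjamini-Hochberg over all genes, 0.05). The members, lists and tests were chosen with earlier results of these data known, so members carry no p-value. Genes named are the members, up to 4 changed genes of each list with groups apart (8 for BMP), Tcf3, Tcf12, the 3 nearest profiles, and others given as values. Listed genes lacking a value are not analysed here. Alternatives were a replicate block, median centring, a second quantile normalisation, a filter on dim genes, an intensity trend, other probe set averages, and leaving out each array. On simulated data with independent noise over 18166 genes, 64% of 50 genes given a log2 change of 0.5 and 98% of 50 given 1 were recovered. Of 186 calls there, 6 were false. Far fewer genes were changed there than the 2666 called in the data. The adjusted threshold depends on that share, so these recovery rates do not carry over directly. The number of arrays limits the precision, and since no label says that replicates came from separate cultures, the spread behind each p-value may be technical. No batch, slide or date is given. Figures used matplotlib 3.10.9.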

Additional observations from a re-analysis of the deposited data

How the results depend on the processing

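The count of members whose NICD1 arrays all lay below the controls ran from 5 to 7 over 11 alternatives, Scx, Atoh8, Id1, Id2 and Id4 being among them each time. Groups of any gene separate more readily with an array left out, and the share of all genes was not counted in those settings. Leaving out an array cannot make separate groups overlap, and the filter and probe set averages left the values of these 5 unchanged. Only median centring and the second quantile normalisation could have made these groups overlap, and they did not. The 118 alternative values of the members' differences all lay within 1 SD, pooled over both groups, of those reported. Most could not do otherwise. Leaving out 1 of 3 arrays cannot move a difference that far. The replicate block, the filter and the probe set averages left the differences unchanged. Over the alternatives Scx ran from -2.80 to -2.61, Atoh8 from -2.08 to -1.83, Id4 from -0.89 to -0.69 and Id1 from -0.29 to -0.20. Genes called over all genes numbered 1830 to 3571, beside 2666. Calls among other basic helix-loop-helix genes numbered 1 to 2 when an array was left out, beside 3. With the replicate number as a block, 1919 genes were called. BMP falls then numbered 6 and rises 7, tendon rises numbered 6, and Lyl1, Bmp4, Gdf6, Bmpr1a, Smurf2, Chrd, Col5a1 and Ets2 lost their calls. Same-numbered arrays did not deviate together (r of -0.03, -0.01 and -0.01 across genes), so no shared replicate effect showed. The labels do not say whether same-numbered samples were prepared together, and these correlations cannot settle it. Lyl1 also lost its call under median centring (0.0558) and a second quantile normalisation (0.0509), by limma. Over all alternatives, the 32 called genes of the 4 companion lists had 415 values, of which 365 kept the call, 50 lost it and 0 changed sign. The losses fell on 10 genes, Hand2 and Bmp10 beside those 8. No scaling moved the median of all genes by over 0.1.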
